A study of Mus musculus with 24 samples.

Results

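The 10 transcripts described here carry names of the clone type, a laboratory clone number ending in Rik, which a mouse gene keeps until a function-based name is given. They are 4632434I11Rik, B930025P03Rik, 1500017E21Rik, 4833411C07Rik, D430041D05Rik, 1700028E10Rik, 2810008D09Rik, 4930581F22Rik, 2810007J24Rik and 1300017J02Rik. They are 10 of the 24015 gene symbols in the count table, which also holds 1866 other symbols of the clone type. The members were selected on their measured difference between furan and control liver, so that difference is given below as a description and without a test. Total RNA was measured by RNA sequencing after removal of ribosomal RNA with beads. The mice were female B6C3F1, a hybrid strain used in toxicology, bought at 5 to 6 weeks of age. Furan, a small ring compound that forms in heated food and damages rodent liver, was dissolved in corn oil and given daily by gavage for 21 days, with 8 mg for each kg of body weight, and control mice received the oil alone. Livers were taken 4 hours after the last dose and divided into 3 pieces.

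From each of 4 control animals (02, 03, 04 and 06) and 4 furan animals (41, 42, 43 and 44), 1 piece was snap frozen, 1 was kept in formalin for 18 hours and 1 in formalin for 3 weeks, both before paraffin embedding. The last are called FFPE 18 h and FFPE 3 weeks (formalin-fixed, paraffin-embedded). Treatment and preservation thus make 6 groups with 4 libraries in each, so 24 in total. RNA was extracted with different kits from frozen and fixed tissue, and from 2 sections in place of 1 for FFPE 3 weeks. Preservation, kit, amount of tissue and the piece of liver cannot be told apart. Values of a library below are in CPM, counts scaled to the size of the library, with TMM factors over the 24 libraries, and are given for animals 02, 03, 04 and 06 and for animals 41, 42, 43 and 44, in that order.

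Long noncoding RNAs are transcripts without a long reading frame; many are weakly expressed, restricted to 1 tissue and lie close to, inside or antisense to protein-coding genes. Clone-type names also cover protein-coding genes that were renamed after the annotation behind a count table was made. By RefSeq (GRCm38.p6), 6 of the 10 are long noncoding RNAs: B930025P03Rik, 4833411C07Rik, 1700028E10Rik, 4930581F22Rik, 1500017E21Rik, which is now Hectd2os, an antisense transcript of the ubiquitin ligase gene Hectd2, and 2810008D09Rik, which is now Snhg20, a small nucleolar RNA host gene. The other 4 are protein-coding. 4632434I11Rik is now Ddias (also noxin), a damage-induced gene that protects cells from apoptosis. 2810007J24Rik is now Sult2a8, a hepatic sulfotransferase, an enzyme class that adds sulfate to steroids, bile acids and foreign compounds. 1300017J02Rik is the inhibitor of carbonic anhydrase, a secreted relative of transferrin, and D430041D05Rik has no function-based name.

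The promoter windows of 4 members are shown for these reasons. 4632434I11Rik is the member with the higher level under furan. B930025P03Rik and 4833411C07Rik lie next to each other on chromosome 8 and were both lower. 1500017E21Rik overlaps Hectd2. Each window runs from 250 bases before to 50 bases after the annotated start, 300 bases in all, from RefSeq (GRCm38.p6), printed 5′ to 3′ on the strand of the transcript. Capitals mark matches, on either strand, to any of 9 motifs. These were the E-box CACGTG, the CCAAT box, the TATA box TATAAA, the cell cycle homology region TTTGAA, the AP-1 site TGACTCA, the core of the antioxidant response element TGACNNNGC, the STAT site TTCNNNGAA, the nuclear receptor half-site AGGTCA and the p53 half-site. The windows lie at chr7:92874198-92874497 on the minus strand for 4632434I11Rik, chr8:10882405-10882704 on the minus strand for B930025P03Rik, chr8:10899672-10899971 on the plus strand for 4833411C07Rik and chr19:36689430-36689729 on the minus strand for 1500017E21Rik.
4632434I11Rik: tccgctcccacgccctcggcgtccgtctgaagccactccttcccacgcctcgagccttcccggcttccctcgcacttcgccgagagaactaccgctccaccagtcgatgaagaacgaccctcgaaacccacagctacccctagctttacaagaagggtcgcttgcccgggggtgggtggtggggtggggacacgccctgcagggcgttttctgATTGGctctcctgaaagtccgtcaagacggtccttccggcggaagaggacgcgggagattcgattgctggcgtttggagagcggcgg
B930025P03Rik: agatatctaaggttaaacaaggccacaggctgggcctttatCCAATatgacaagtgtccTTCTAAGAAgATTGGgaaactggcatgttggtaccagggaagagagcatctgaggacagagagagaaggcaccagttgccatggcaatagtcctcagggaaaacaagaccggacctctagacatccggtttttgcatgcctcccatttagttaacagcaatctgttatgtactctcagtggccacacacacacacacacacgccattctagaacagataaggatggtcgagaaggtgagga
4833411C07Rik: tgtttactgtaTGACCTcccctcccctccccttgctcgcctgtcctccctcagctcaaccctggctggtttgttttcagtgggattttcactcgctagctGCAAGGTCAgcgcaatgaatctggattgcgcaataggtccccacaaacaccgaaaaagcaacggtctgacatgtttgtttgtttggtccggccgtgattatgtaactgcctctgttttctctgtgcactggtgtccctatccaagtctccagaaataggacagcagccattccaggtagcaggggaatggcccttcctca
1500017E21Rik: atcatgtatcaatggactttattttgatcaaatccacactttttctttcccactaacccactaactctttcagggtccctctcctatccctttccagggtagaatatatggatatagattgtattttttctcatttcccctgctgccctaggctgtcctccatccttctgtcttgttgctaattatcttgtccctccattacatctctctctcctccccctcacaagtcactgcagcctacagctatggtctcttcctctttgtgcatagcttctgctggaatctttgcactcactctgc

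The window of 4632434I11Rik is rich in G and C (63.7%, 29 CpG dinucleotides) and holds 1 CCAAT box. The B930025P03Rik window (47.3% G and C, 4 CpG) holds 2 CCAAT boxes and a STAT site. That of its neighbour 4833411C07Rik (52.0%, 8 CpG) holds 1 antioxidant core and 2 nuclear receptor half-sites, 1 of which overlaps that core. The 1500017E21Rik window has 0 CpG and holds none of the 9. The table of promoters had a window for all 10 members, 12 windows in all. Among 32851 windows of 27025 genes, the median G and C content was 52.7% with 7 CpG. A CCAAT box was in 37.4% of all windows and in 3 of the 12, a STAT site in 8.3% and in 1, an antioxidant core in 12.4% and in 2, and a nuclear receptor half-site in 16.3% and in 2. The E-box (7.15% of all windows) was in that of 4930581F22Rik, the p53 half-site (8.36%) in that of 2810008D09Rik, and the TATA box (13.6%) in both of 2810007J24Rik. The cell cycle homology region (17.9%) and the AP-1 site (5.2%) were in none of the 12. These are matches of letters, not binding sites.

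Libraries held 37978435 to 49326373 counts in frozen tissue, 22889146 to 28054631 in FFPE 18 h and 5560002 to 11019297 in FFPE 3 weeks. In the last of these, single genes dropped out of single libraries: 1.84% to 15.2% of the genes expected at 20 to 60 counts in a library had none, against 0% to 2.61% in frozen and 0.0538% to 1.08% in FFPE 18 h libraries. The frozen library of control animal 03 stood apart, with a mean correlation of 0.957 to the other 3 frozen controls, which had 0.977 to 0.980. The summed level of 6 hepatocyte markers was high in every library (54000 to 187200 CPM). The summed level of 6 sinusoidal endothelial markers was lower with furan in frozen tissue (459 to 489 against 586 to 614 CPM) and in FFPE 18 h (429.5 to 444.7 against 535.5 to 572.8 CPM), and overlapped in FFPE 3 weeks (396 to 451 against 436 to 501 CPM). The 6 macrophage markers summed to 329 to 695 CPM in frozen controls and 344 to 378 CPM with furan. The 6 markers of pancreas and gut, with Amy2a5 at 0 in every library, summed to 60.8 to 132 CPM in frozen controls and 54.5 to 76.5 CPM with furan. They summed to 40.9 to 50.5 and 27.6 to 34.9 CPM in FFPE 18 h, and to 25.3 to 33.2 and 8.61 to 18.1 CPM in FFPE 3 weeks, where 4 of the 6 were at 0. The summed levels of stellate, bile duct, lymphocyte, neutrophil and erythroid markers overlapped between the treatments in each preservation (Hbb-b1 and Hba-a1 at 0). The part of these other cells in the levels of the 10 transcripts was not tested, and in whole tissue fewer cells of a type cannot be told apart from less RNA per cell.

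Per kilobase of exon (GENCODE vM21), the frozen control livers held most of the sulfotransferase 2810007J24Rik, 424 CPM per kb, followed by the inhibitor of carbonic anhydrase 1300017J02Rik with 185 CPM per kb. The long noncoding 1500017E21Rik (9.73), 4833411C07Rik (7.73), 4930581F22Rik (5.84) and B930025P03Rik (4.62 CPM per kb) came next. The lowest were 2810008D09Rik (0.914), 4632434I11Rik (0.469), 1700028E10Rik (0.315) and D430041D05Rik (0.0931 CPM per kb). The lengths join the exons of all annotated transcripts of a gene, for example 16.64 kb for D430041D05Rik. They need not be the exons that were counted, so the order of members with close values is uncertain. The order differed in FFPE 3 weeks controls, without a test of the differences between genes: B930025P03Rik reached 9.85 CPM per kb, above 4833411C07Rik (8.38) and 1500017E21Rik (3.55), and D430041D05Rik with 0.808 CPM per kb was above 4632434I11Rik with 0.349.

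**Figure D1:**
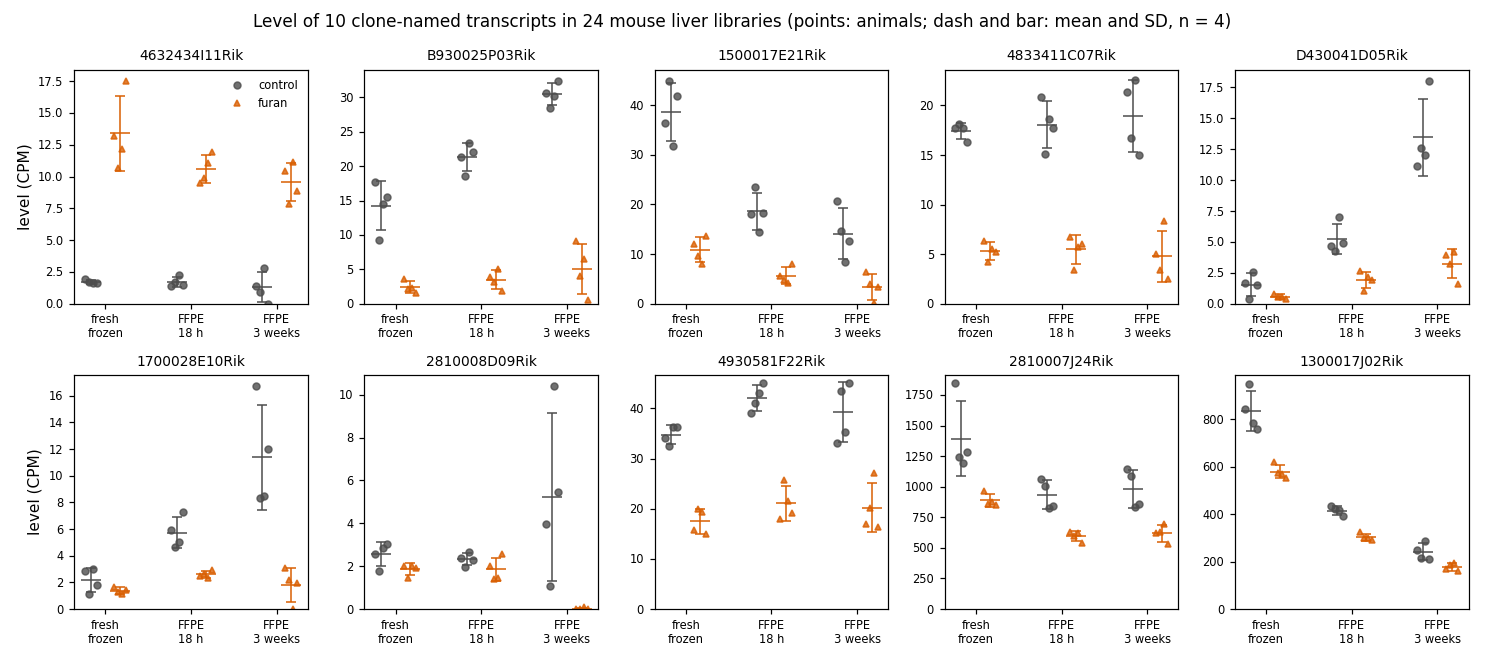
Level in CPM (linear axis from 0, own scale for each transcript) of the 10 transcripts in 4 control (grey circles) and 4 furan (orange triangles) livers in each preservation, with mean and SD. 4632434I11Rik is the transcript that is higher with furan, and the furan libraries of 2810008D09Rik lie at or near 0 in FFPE 3 weeks.

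4632434I11Rik (Ddias) was the 1 member with a higher level under furan. In frozen tissue the control livers had 1.94, 1.71, 1.64 and 1.65 CPM and the furan livers 13.2, 10.7, 12.2 and 17.5 CPM. The FFPE 18 h values were 1.38, 1.75, 2.26 and 1.47 CPM in control and 9.52, 9.88, 11.1 and 11.9 CPM in furan livers. The FFPE 3 weeks controls had 1.43, 0.917, 2.82 and 0 CPM and the furan livers 10.4, 7.87, 11.1 and 8.91 CPM. Each furan library lay above every control library of its preservation, and control animal 06 had no read in FFPE 3 weeks. The fold was 7.71 in frozen tissue (log2 fold change 2.95 ± 0.19, estimate ± SE, from 243 control and 2094 furan counts), 6.21 in FFPE 18 h (2.63 ± 0.19) and 7.54 in FFPE 3 weeks (2.91 ± 0.73, from 50 and 406 counts).

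The neighbouring long noncoding RNAs B930025P03Rik and 4833411C07Rik were both lower with furan in every preservation. B930025P03Rik was at 17.8, 9.34, 14.5 and 15.5 CPM in frozen control livers and at 3.67, 2.14, 2.37 and 1.63 CPM in frozen furan livers. Its FFPE 18 h values were 21.3, 18.6, 23.3 and 22.02 CPM in control and 3.88, 3.10, 5.12 and 1.88 CPM in furan livers. Its FFPE 3 weeks values were 30.6, 28.5, 30.2 and 32.4 CPM against 9.09, 4.01, 6.46 and 0.604 CPM. The groups did not overlap in any preservation, and furan animal 44 was the lowest of the furan livers in all 3 pieces. The level was 5.82-fold lower in frozen tissue (log2 fold change -2.54 ± 0.27), 6.05-fold lower in FFPE 18 h (-2.60 ± 0.22) and 5.98-fold lower in FFPE 3 weeks (-2.58 ± 0.51).

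4833411C07Rik was at 17.7, 18.1, 17.7 and 16.3 CPM in frozen control and 6.37, 4.17, 5.49 and 5.25 CPM in frozen furan livers. In FFPE 18 h it was at 20.8, 15.1, 18.6 and 17.7 CPM against 6.78, 3.45, 5.74 and 5.99 CPM, and in FFPE 3 weeks at 21.4, 16.7, 22.6 and 15.0 CPM against 5.03, 3.40, 8.33 and 2.49 CPM. Here too no furan library reached a control library of the same preservation. It was lower 3.28-fold (log2 fold change -1.71 ± 0.16), 3.26-fold (-1.70 ± 0.17) and 3.87-fold (-1.95 ± 0.40) in the 3 preservations. Within the 6 groups, after each group's mean was subtracted, log2 CPM of these neighbours correlated with r = 0.59 over 24 libraries of 8 animals and 0.22 over the 16 libraries without FFPE 3 weeks. On the side of 4833411C07Rik the next protein-coding gene is Irs2, an adaptor of the insulin receptor, added here after the gene order was read. Irs2 did not pass edgeR's test of furan against control, with log2 fold changes of -0.43 ± 0.24 in frozen tissue (adjusted p = 0.367, edgeR), -0.46 ± 0.20 in FFPE 18 h (0.174) and -0.08 ± 0.30 in FFPE 3 weeks (0.971), while the DESeq2 test gave an adjusted p of 0.0489 in FFPE 18 h.

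1500017E21Rik, the antisense transcript of Hectd2, was lower with furan while Hectd2 was higher. It was at 36.4, 44.9, 31.7 and 41.9 CPM in frozen control livers and at 12.0, 9.54, 8.09 and 13.7 CPM in frozen furan livers. Its FFPE 18 h levels were 18.1, 23.5, 14.4 and 18.4 CPM against 5.54, 4.88, 4.12 and 8.06 CPM. Its FFPE 3 weeks levels were 20.8, 14.6, 8.47 and 12.7 CPM against 6.35, 4.01, 0.0936 and 3.32 CPM. The groups did not overlap in any preservation, and the low value of animal 43 in FFPE 3 weeks is 1 library. The level was 3.56-fold lower in frozen tissue (log2 fold change -1.83 ± 0.18), 3.27-fold lower in FFPE 18 h (-1.71 ± 0.20) and 4.06-fold lower in FFPE 3 weeks (-2.02 ± 0.64).

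Hectd2 itself is not a member and was tested. It rose with furan in frozen tissue from 4.67 ± 1.25 to 9.15 ± 1.15 CPM (SD, n = 4; log2 fold change 0.97 ± 0.20, adjusted p = 0.0298, edgeR) and in FFPE 18 h from 5.40 ± 1.02 to 11.8 ± 3.19 CPM (1.14 ± 0.20, adjusted p = 0.000861). With FFPE 3 weeks it was at 6.33 ± 1.02 and 12.1 ± 3.97 CPM and did not pass the test (0.96 ± 0.41, adjusted p = 0.285; 0.0261 in a fit over all 24 libraries). In each preservation the 4 furan libraries lay above the 4 control libraries. The frozen call was lost without 04, 06, 41, 42, 43 or 44 in turn (adjusted p 0.0665 to 0.11), and had an adjusted p of 0.00744 without animal 03. After thinning of the libraries to 1 depth the frozen difference had an adjusted p of 0.116. Within the groups, log2 CPM of 1500017E21Rik and Hectd2 correlated with r = 0.24 over the 24 libraries and -0.36 over the 16 without FFPE 3 weeks. Reads of overlapping exons cannot be assigned to a strand unless the counting used strand, and the strand setting is not given in the sources used here. Ppp1r3c, a glycogen-targeting phosphatase subunit on the other side, did not pass (log2 fold change 0.87 ± 0.24, adjusted p = 0.0838 in frozen tissue; 0.112 in FFPE 18 h and 0.254 in FFPE 3 weeks), nor did Pcgf5, a polycomb protein (adjusted p 0.529 to 0.998). Ppp1r3c passed without animal 02 in frozen tissue (0.048), without animal 06 in FFPE 18 h (0.0123) and FFPE 3 weeks (0.0493), and by the DESeq2 test in frozen tissue (0.0109), FFPE 18 h (0.028) and FFPE 3 weeks (0.0151). With no low-count filter it also passed in FFPE 3 weeks (0.000523).

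**Figure D2:**
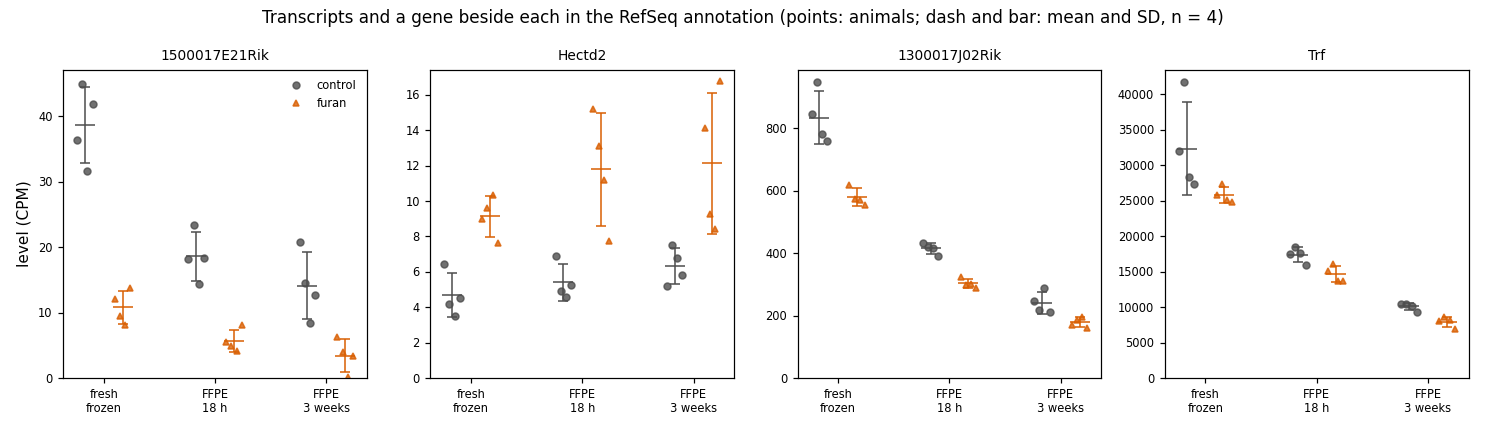
Level in CPM (linear axes from 0) of 1500017E21Rik with the gene it overlaps, Hectd2, and of 1300017J02Rik with its neighbour Trf. Values are those of control (grey circles) and furan (orange triangles) livers of each preservation, with mean and SD of 4 animals. 1500017E21Rik is lower and Hectd2 higher in the furan livers of each preservation, while 1300017J02Rik and Trf are both lower on average.

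D430041D05Rik, a protein-coding gene, was low in frozen tissue, at 1.71, 0.380, 2.60 and 1.503 CPM in control and 0.807, 0.559, 0.578 and 0.352 CPM in furan livers. After 18 h in formalin it was at 4.67, 4.30, 7.04 and 4.95 CPM against 2.63, 1.03, 2.16 and 1.92 CPM, and in FFPE 3 weeks at 11.1, 12.6, 12.1 and 18.0 CPM against 3.97, 3.24, 4.21 and 1.59 CPM. Frozen groups overlapped through control animal 03, and the fixed groups did not overlap. The level was 2.71-fold lower in frozen tissue (log2 fold change -1.44 ± 0.50), 2.68-fold lower in FFPE 18 h (-1.42 ± 0.26) and 4.09-fold lower in FFPE 3 weeks (-2.03 ± 0.46).

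1700028E10Rik, a long noncoding RNA that overlaps the gene Stard13, was at 2.84, 1.14, 2.98 and 1.77 CPM in frozen control and 1.67, 1.28, 1.13 and 1.46 CPM in frozen furan livers. The FFPE 18 h values were 5.96, 4.65, 5.06 and 7.30 CPM against 2.49, 2.66, 2.31 and 2.94 CPM, and in FFPE 3 weeks 16.7, 8.34, 8.47 and 12.0 CPM against 3.09, 2.16, 0 and 1.96 CPM. The frozen groups overlapped through animal 03, whose 1.14 CPM was the lowest frozen control value. The fold was 1.58 lower in frozen tissue (log2 fold change -0.66 ± 0.32), 2.19 lower in FFPE 18 h (-1.13 ± 0.20) and 6.23 lower in FFPE 3 weeks (-2.64 ± 0.69), and whether it differed between preservations was not tested. Stard13 did not pass in any preservation (log2 fold change -0.31 ± 0.13, -0.18 ± 0.10 and -0.19 ± 0.16; adjusted p 0.248, 0.244 and 0.746).

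2810008D09Rik (Snhg20) was near 0 in the furan livers of FFPE 3 weeks and not in those of the other preservations. It was at 2.58, 1.77, 2.83 and 3.04 CPM in frozen control and 2.00, 1.44, 2.02 and 1.93 CPM in frozen furan livers, and at 2.38, 1.98, 2.68 and 2.27 CPM against 2.01, 1.39, 1.46 and 2.56 CPM in FFPE 18 h. In both these preservations the groups overlapped. The FFPE 3 weeks controls had 3.95, 1.08, 10.4 and 5.48 CPM, and the furan livers 0, 0, 0.0936 and 0 CPM. That is 192 counts over the 4 controls and 1 count over the 4 furan libraries, a ratio per library size of 188.6 with a 95% counting interval of 33.5 to 7489. This interval pools the reads of the 4 libraries and covers counting error only, not the spread between animals, so it is not a test. The control libraries themselves differed widely, from 1.08 to 10.4 CPM. The log2 fold change was -0.47 ± 0.24 in frozen tissue and -0.31 ± 0.28 in FFPE 18 h. Among 3437 FFPE 3 weeks genes with 100 to 400 counts over the 4 controls, 5 had 3 or fewer counts over the 4 furan libraries, and 8 of 3510 genes showed the reverse. In frozen tissue these numbers were 0 of 2079 and 0 of 2110, and in FFPE 18 h 0 of 2529 and 6 of 2555. Mir6516, a microRNA whose gene lies within that of 2810008D09Rik, had log2 fold changes of -0.22 ± 0.21, -0.45 ± 0.12 and -0.28 ± 0.22, and fell by the test in FFPE 18 h (adjusted p 0.622, 0.0141 and 0.702), where thinning gave 0.194 and a fit over all 24 libraries 0.302.

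4930581F22Rik, a long noncoding RNA overlapping the sialyltransferase gene St3gal4 and the decapping enzyme gene Dcps, was at about the same fraction of control in each preservation. Frozen control livers ranged from 32.5 to 36.3 CPM and frozen furan livers from 14.99 to 19.99 CPM. The ranges were 39.2 to 45.1 against 17.9 to 25.7 CPM in FFPE 18 h and 33.1 to 45.1 against 16.5 to 27.1 CPM in FFPE 3 weeks. No group overlapped its control. The level was 50.5%, 50.3% and 52.0% of control (log2 fold change -0.99 ± 0.13, -0.99 ± 0.10 and -0.94 ± 0.24). St3gal4 did not pass (log2 fold change -0.16, -0.30 and -0.36, adjusted p 0.664, 0.169 and 0.263; 0.00189 in FFPE 18 h without animal 42). Dcps fell by the test in FFPE 18 h with an adjusted p of 0.0492 (-0.38 ± 0.13), but not in frozen tissue (-0.24 ± 0.12, 0.333) or FFPE 3 weeks (-0.47 ± 0.37, 0.72). The Dcps call was lost without 03, 04, 06, 41, 43 or 44 in turn (0.0638 to 0.13), after thinning (0.0792) and in a fit over all 24 libraries (0.653).

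The abundant protein-coding members 2810007J24Rik and 1300017J02Rik had small differences. 2810007J24Rik (Sult2a8) was at 1848, 1243, 1191 and 1287 CPM in frozen control and 967, 859, 875 and 852 CPM in frozen furan livers. It ranged from 823.5 to 1063 against 542 to 628 CPM in FFPE 18 h and from 831 to 1145 against 529 to 698 CPM in FFPE 3 weeks. The groups did not overlap in any preservation, and the level with furan was 63.9%, 64.4% and 63.9% of control (log2 fold change -0.65 ± 0.15, -0.64 ± 0.08 and -0.65 ± 0.11). Without control animal 02, the highest frozen control, the frozen log2 fold change was -0.48. In a list of 20 other genes, sulfotransferases and the Papss enzymes that make their sulfate donor, 0 rose and 2 fell of 14 tested in frozen tissue, 1 rose and 3 fell of 13 in FFPE 18 h, and 0 rose and 1 fell of 9 in FFPE 3 weeks, with medians of -0.25, -0.22 and -0.03 on the log2 scale. Where 0 rose, 2 (frozen) and 1 (FFPE 3 weeks) were higher at an unadjusted p below 0.05 in edgeR, and 0 were called higher by DESeq2. Sult1c2 fell by 1.02 (SE 0.16, adjusted p = 0.00941) in frozen tissue and by 1.13 (SE 0.13, adjusted p = 2.78e-05) in FFPE 18 h on the log2 scale, while Sult1a1, a phenol sulfotransferase, rose by 0.31 (SE 0.08, adjusted p = 0.00926) in FFPE 18 h. The frozen call of Sult1c2 was lost without animal 43 (0.0521), and the call of Sult1a1 without 03 or 04 (0.0614 and 0.05). In a fit over all 24 libraries Sult1c2 had an adjusted p of 0.0687 in frozen tissue and 0.0578 in FFPE 18 h, and Sult1a1 one of 0.406. Sult3a1 fell in all 3 preservations (log2 fold change -1.06 ± 0.24, -1.14 ± 0.26 and -1.32 ± 0.35, adjusted p 0.0436, 0.0266 and 0.0491, edgeR). Its frozen call was lost without each animal in turn (0.0545 to 0.142) and in a fit over all 24 libraries (0.102). The FFPE 3 weeks call was lost without 02, 03, 04, 42, 43 or 44 in turn (0.0855 to 0.176). The Sult2a genes are close copies, and how reads that fit several copies were counted is not given in the sources used here. The flanking copies Sult2a7 (log2 fold change 0.76 ± 0.35 in frozen tissue, adjusted p = 0.282) and Sult2a6 (-0.62 ± 0.94, 0.766) did not pass, nor did Sult2a7 in FFPE 18 h (1.08 ± 0.41, 0.1), where it passed without animal 03 (0.0338), after thinning (0.0276) and by the DESeq2 test (0.0476).

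1300017J02Rik, the inhibitor of carbonic anhydrase, was at 844, 948, 783 and 759 CPM in frozen control and 619, 572, 572 and 554 CPM in frozen furan livers. It ranged from 391 to 433 against 289 to 323 CPM in FFPE 18 h and from 212.5 to 288.5 against 161 to 196 CPM in FFPE 3 weeks. Again the groups did not overlap in any of the 3. The level was 69.6%, 73.4% and 74.8% of control (log2 fold change -0.52 ± 0.11, -0.45 ± 0.06 and -0.42 ± 0.12). Trf, the iron carrier transferrin and its neighbour, had log2 fold changes of -0.33 ± 0.14, -0.24 ± 0.07 and -0.33 ± 0.07 and fell by the test in FFPE 18 h (adjusted p = 0.0348) and FFPE 3 weeks (0.00907), not in frozen tissue (0.247). The FFPE 18 h call of Trf was lost without 02, 03, 04, 43 or 44 in turn (0.0662 to 0.125) and in a fit over all 24 libraries (0.313), and without animal 03 the FFPE 3 weeks value was 0.044. Within the groups, log2 CPM of 1300017J02Rik and Trf correlated with r = 0.65 over the 24 libraries and 0.81 over the 16 without FFPE 3 weeks. Both r include the frozen library of animal 03, the highest frozen control for 1300017J02Rik (948 CPM). It was also the highest for Trf, with 41730 CPM against 27300 to 32040 CPM in the other frozen controls. The value of r without that library was not calculated. Topbp1, a replication checkpoint gene on the other side, did not pass (adjusted p 0.196, 0.77 and 0.929). Of 3 transferrin family and receptor genes tested, Trf among them, 1 rose in each preservation, and 0, 2 and 1 fell (at an unadjusted p below 0.05, 1 was lower in frozen tissue in edgeR; DESeq2 called 0). Tfrc, the transferrin receptor, was the one that rose (log2 fold change 1.39 ± 0.24, 1.08 ± 0.16 and 0.91 ± 0.18; adjusted p 0.013, 0.00179 and 0.0025; 0.05 in frozen tissue without animal 04). Of 16 carbonic anhydrases, 1 of 11 tested rose in frozen tissue, 1 rose and 1 fell of 13 in FFPE 18 h, and 0 of 9 passed in FFPE 3 weeks (edgeR; 0 at an unadjusted p below 0.05, and 0 by DESeq2). Car2 rose in the first and second of these (1.27 ± 0.20 and 1.06 ± 0.25; adjusted p 0.00929 and 0.0202; the second was 0.0717 without animal 03 and 0.0523 without 44, and 0.051 with no low-count filter).

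**Figure D3:**
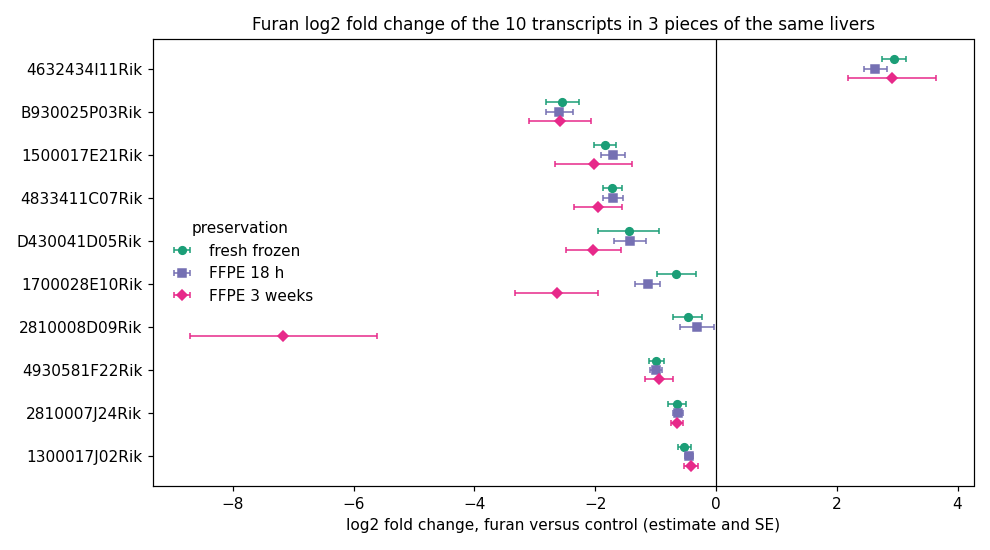
Log2 fold change of furan against control (horizontal axis, estimate and SE, 4 against 4 animals) of each transcript in frozen (green circles), FFPE 18 h (purple squares) and FFPE 3 weeks (pink diamonds) tissue; no test is shown because the transcripts were selected on this difference. The 3 pieces lie close together for 4930581F22Rik (-0.99, -0.99 and -0.94), 2810007J24Rik and 1300017J02Rik, and apart for 1700028E10Rik and 2810008D09Rik.

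Counted together, all 10 members passed the low-count filter in each preservation. In frozen tissue 1 member was higher without overlap (as were 7.2% of all genes tested), 6 were lower (6.31%) and 3 overlapped. Of the FFPE 18 h levels 1 was higher (9.59%), 8 were lower (10.4%) and 1 overlapped, and in FFPE 3 weeks 1 was higher (3.87%) and 9 were lower (4.8%). Nothing is read from these counts, because the members were selected on the same difference. The 3 frozen overlaps, of D430041D05Rik, 1700028E10Rik and 2810008D09Rik, all came from control animal 03, and without it 0 of the 10 overlapped. The share of all genes without overlap is not given for this smaller set of animals, so nothing is read from that count either. Leaving out animal 03 moved the log2 fold changes of these 3 to -1.76 ± 0.36, -0.87 ± 0.27 and -0.61 ± 0.23, and that of B930025P03Rik to -2.70 ± 0.21. It also moved the number of genes called in frozen tissue from 392 to 1148.

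Few of the other clone-named symbols passed the test with furan. The members, which are clone-named and were selected on their furan difference, are left out of this set but kept among all genes. Their removal bears on the shares and the median below in advance, so no difference from all genes is read from them. In frozen tissue 0 rose and 11 fell of 679 tested, 0% and 1.62%, against 1.57% and 1.2% of all genes tested, with a median log2 fold change of -0.06 against -0.01 over all genes. For FFPE 18 h, 20 rose and 47 fell of 700 (2.86% and 6.71%, against 7.82% and 7.72%), and in FFPE 3 weeks 0 rose and 7 fell of 595 (0% and 1.18%, against 1.07% and 1.51%). DESeq2 called 5 higher in frozen tissue and 2 in FFPE 3 weeks, and 30 and 13 were higher at an unadjusted p below 0.05 in edgeR. Among called genes with a mean log2 CPM of at least 1, the largest falls were those of E030018B13Rik in frozen tissue (log2 fold change -1.19 ± 0.25, adjusted p = 0.0306), 1190005I06Rik in FFPE 18 h (-1.46 ± 0.28, 0.0019) and 4921507P07Rik in FFPE 3 weeks (-1.93 ± 0.48, 0.0192). The largest rise among them was that of 9130230L23Rik in FFPE 18 h (2.41 ± 0.58, 0.0188). The call was lost without 04, 06, 41, 42, 43 or 44 in turn for E030018B13Rik (0.0594 to 0.106), without 02, 03, 41, 42 or 43 for 4921507P07Rik (0.058 to 0.159), and without 03 or 04 for 9130230L23Rik (0.0713 and 0.0555). In a fit over all 24 libraries it was lost for E030018B13Rik (0.0638), 1190005I06Rik (0.465) and 9130230L23Rik (0.189), and after thinning for E030018B13Rik (0.122).

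Ddias is known from DNA damage and cell division, and lists of such genes are given for comparison. Of 25 p53 target genes, 14 rose and 0 fell in frozen tissue, 16 rose and 1 fell in FFPE 18 h, and 7 rose and 0 fell in FFPE 3 weeks, with median log2 fold changes of 1.02, 0.98 and 1.10. Where 0 fell, 0 (frozen) and 1 (FFPE 3 weeks) were lower at an unadjusted p below 0.05 in edgeR, and DESeq2 called 0. Of 25 proliferation genes, 7 rose and 1 fell in frozen tissue, 7 rose and 1 fell of 24 tested in FFPE 18 h, and 0 of 20 passed in FFPE 3 weeks (edgeR; 1 at an unadjusted p below 0.05, and 0 by DESeq2). Of 25 genes of the DNA damage and replication fork response, 1 rose in frozen tissue, 1 rose and 1 fell of 24 in FFPE 18 h, and 1 of 21 fell in FFPE 3 weeks. The checkpoint kinase gene Chek1 was the one that rose (log2 fold change 1.55 ± 0.37 in frozen tissue, adjusted p = 0.0483; 1.69 ± 0.40 in FFPE 18 h, 0.00815). Its frozen call was lost without 02, 04, 06, 41, 42, 43 or 44 in turn (0.0554 to 0.19), and in a fit over all 24 libraries the frozen and FFPE 18 h calls were both lost (0.414 and 0.478). Prcp, a carboxypeptidase gene next to 4632434I11Rik, rose in FFPE 18 h (0.41 ± 0.11, adjusted p = 0.0169), not in frozen tissue (0.60 ± 0.19, 0.121) or FFPE 3 weeks (0.09 ± 0.35, 0.972). Without animal 03 its adjusted p was 0.0416 in frozen tissue and 0.0677 in FFPE 18 h, and without animal 41 it was 0.0533 in FFPE 18 h, as it was 0.57 in a fit over all 24 libraries. Of 30 named long noncoding RNAs in the table, 1 of 26 rose in frozen tissue, 1 rose and 4 fell of 26 in FFPE 18 h, and 2 of 24 fell in FFPE 3 weeks.

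The genes whose levels followed each member most closely were sought over the 24 libraries by Pearson's r of log2 CPM, after each preservation's mean was subtracted, among 12794 genes. All points share the 2 treatments and the 8 animals, so r includes the furan difference and is a description. 4632434I11Rik was most like Txnrd1 (r = 0.94), Utp20 (0.94) and Usp37 (0.93). B930025P03Rik was most like Dixdc1 (0.95), Slc6a12 (0.93) and Ssh2 (0.92), of which Slc6a12 (0.89) and Ssh2 (0.88) also led for D430041D05Rik, with Mrc1 (0.88). Its neighbour 4833411C07Rik was most like Ido2 (0.96), Slc23a2 (0.95) and Cfb (0.95). Cfb (0.97) also led for 1300017J02Rik, before Klhdc7a (0.93) and Fetub (0.93). For 1500017E21Rik the nearest were Kifc2 (0.92), Bri3bp (0.90) and 2900005J15Rik (0.88), and for 1700028E10Rik Rnf157 (0.92), Ddb2 (0.92) and Pradc1 (0.91). For 2810008D09Rik they were Gm11992 (0.94), Sepsecs (0.92) and Osbpl2 (0.88), for 4930581F22Rik Lipc, Scnn1a and Fzd8 (0.93, 0.93 and 0.92), and for 2810007J24Rik Rdh7, Slco1b2 and Slco1a1 (0.92, 0.91 and 0.91). With Spearman's rank correlation the top 3 shared 0 genes with these for 5 members, namely 4632434I11Rik, B930025P03Rik, 1500017E21Rik, 4833411C07Rik and 1700028E10Rik. Of the pairs of members, 1500017E21Rik and 1700028E10Rik had the highest correlation within the groups, r = 0.91 over 24 libraries, but -0.06 over the 16 without FFPE 3 weeks, where animal 43 was near 0 for both.

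Preservation was compared over all 8 animals, as the mean of both treatments, a difference other than the one the members were selected on. An exception is 2810008D09Rik in FFPE 3 weeks, where the furan libraries near 0 enter both. Fits of control or furan libraries alone use group levels that also enter the furan difference. Their values for the members are therefore a description. For FFPE 18 h against frozen tissue, 4 of the 10 members rose (26.6% of all genes tested rose) and 3 fell (27.3%). For FFPE 3 weeks against frozen tissue, 3 rose (23.0%) and 4 fell (25.8%), and in FFPE 3 weeks against FFPE 18 h, 1 rose (14.9%) and 2 fell (17.5%). The members that fell in the comparisons with FFPE 3 weeks include 2810008D09Rik. The size of the changes differed widely among members, from an increase of 7.04-fold to a decrease of 3.31-fold, with 2810008D09Rik left aside.

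D430041D05Rik rose most with fixation. Its mean over the 8 animals was 1.06 CPM in frozen tissue, 3.59 CPM in FFPE 18 h and 8.35 CPM in FFPE 3 weeks, and each of the 8 animals was higher in both fixed pieces than in the frozen one. The log2 fold change was 1.74 ± 0.29 in FFPE 18 h (adjusted p = 3.57e-05, edgeR) and 2.82 ± 0.37 in FFPE 3 weeks (5.14e-07) against frozen tissue, and 1.06 ± 0.27 between the fixed tissues (0.00333). With furan libraries alone the last had an adjusted p of 0.403. 1700028E10Rik rose by 1.14 ± 0.19 in FFPE 18 h (adjusted p = 3.38e-05, 8 of 8 animals) and by 1.396 ± 0.44 in FFPE 3 weeks (0.0102, 7 of 8). For the second, the log2 fold change was 2.40 in control libraries alone and 0.41 in furan libraries alone (adjusted p = 0.765), and the difference between these was not tested. Between the fixed tissues 1700028E10Rik did not pass (0.24 ± 0.38, 0.689). Control libraries alone gave 1.02 (0.0291), which is a description, since these levels also enter the furan difference. B930025P03Rik rose by 0.54 ± 0.18 in FFPE 18 h (0.0174, 8 of 8 animals) and by 1.08 ± 0.30 in FFPE 3 weeks (0.00444, 7 of 8). Without animal 43 the FFPE 18 h rise had an adjusted p of 0.0866, with furan libraries alone the rises had 0.145 and 0.194, and in a fit over all 24 libraries the first had 0.122. Between the fixed tissues it did not pass (0.53 ± 0.30, 0.197), but did without animal 44 (0.00843). Control libraries alone gave an adjusted p of 0.0158, likewise a description.

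4833411C07Rik did not pass in any comparison of preservations, with log2 fold changes of 0.05 ± 0.12, 0.00 ± 0.21 and -0.05 ± 0.21 (adjusted p 0.765, 0.99 and 0.888). Its neighbour B930025P03Rik passed in both comparisons with frozen tissue, and the difference between these neighbours was not tested. 4930581F22Rik rose by 0.27 ± 0.09 in FFPE 18 h (adjusted p = 0.0131, 8 of 8 animals), with an adjusted p of 0.0608 in a fit over all 24 libraries and 0.0756 with furan libraries alone, and did not pass in FFPE 3 weeks (0.21 ± 0.13, 0.207). 4632434I11Rik did not pass in any of the 3 (log2 fold changes -0.18, -0.45 and -0.28; adjusted p 0.253, 0.296 and 0.599).

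3 members fell in both fixed tissues in each of the 8 animals. 1300017J02Rik had a mean of 706 CPM in frozen tissue, 359 CPM in FFPE 18 h and 210.0 CPM in FFPE 3 weeks. Its log2 fold changes against frozen tissue were -0.97 ± 0.06 (adjusted p = 2.73e-10) and -1.73 ± 0.08 (9.48e-15), and -0.76 ± 0.06 between the fixed tissues (6.4e-10). 1500017E21Rik had means of 24.8, 12.1 and 8.79 CPM, with log2 fold changes of -0.9998 ± 0.14 (5.39e-06) and -1.54 ± 0.32 (0.000492) against frozen tissue and -0.55 ± 0.35 (0.26) between the fixed ones. 2810007J24Rik had means of 1140.0, 765 and 800.4 CPM, with log2 fold changes of -0.58 ± 0.09 (1.82e-05) and -0.49 ± 0.09 (0.000104), and 0.07 ± 0.07 (0.506).

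2810008D09Rik passed as lower in FFPE 3 weeks, by -2.46 ± 0.64 against frozen tissue (adjusted p = 0.00252) and -2.37 ± 0.65 against FFPE 18 h (0.00601), and was lower in 5 of 8 animals. With control libraries alone the log2 fold changes were 1.04 (0.202) and 1.19 (0.186), and with furan libraries alone -5.97 and -5.90. The call thus rests on the furan libraries near 0, which also bore on the choice of this member. Between FFPE 18 h and frozen tissue it did not pass (-0.07 ± 0.17, 0.758).

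**Figure D4:**
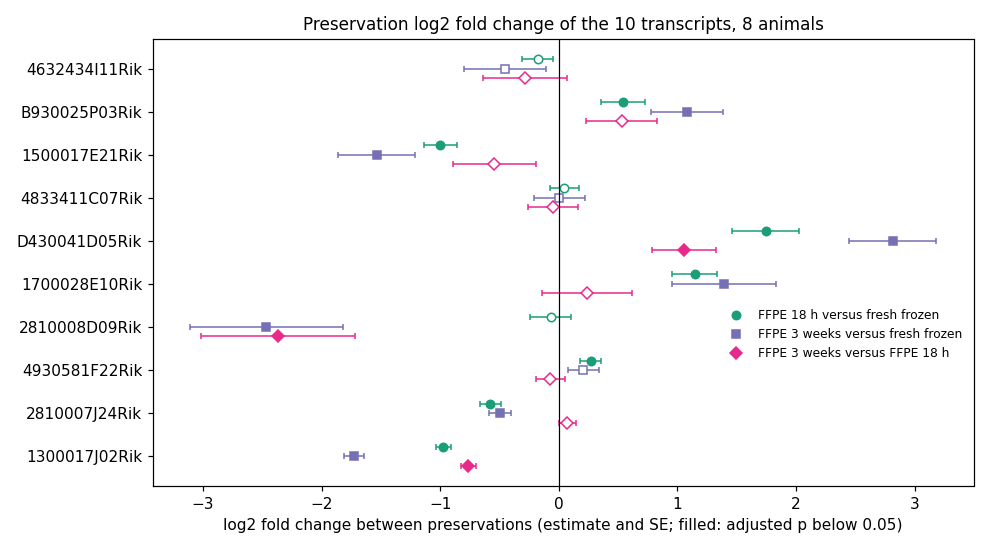
Log2 fold change between preservations (horizontal axis, estimate and SE over 8 animals, mean of both treatments) of each transcript, with filled symbols where the adjusted p was below 0.05. D430041D05Rik and 1700028E10Rik lie to the right in both comparisons with frozen tissue, and 1300017J02Rik, 1500017E21Rik and 2810007J24Rik to the left.

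The members were set beside other genes of their kind, first by the type of name and then by RefSeq class, the second chosen after the members' values had been seen. Of the other clone-named symbols, 292 rose and 91 fell of 754 tested in FFPE 18 h (38.7% and 12.1%), 253 rose and 72 fell of 709 in FFPE 3 weeks (35.7% and 10.2%), and 130 rose and 45 fell of 734 between the fixed tissues (17.7% and 6.13%). Their median log2 fold changes were 0.33, 0.50 and 0.27, against 0.01, -0.02 and -0.05 over all genes. RefSeq classes were found for 23825 of the 24015 symbols. Of all long noncoding RNAs, 52.2% rose and 3.43% fell in FFPE 18 h against frozen tissue and 47.4% rose and 3.84% fell in FFPE 3 weeks (642 and 599 tested). Of all protein-coding genes, 24.8% rose and 29.0% fell in FFPE 18 h and 21.3% rose and 27.2% fell in FFPE 3 weeks. Clone-named protein-coding genes other than the members (26.3% and 21.4% in FFPE 18 h) were closer to all protein-coding genes than to clone-named long noncoding RNAs (50.1% and 3.43%). Among the 6 long noncoding members, B930025P03Rik, 1700028E10Rik and 4930581F22Rik rose in FFPE 18 h and 1500017E21Rik fell, while among the 4 protein-coding members D430041D05Rik rose and 2810007J24Rik and 1300017J02Rik fell. 1500017E21Rik was thus among the 3.43% of long noncoding RNAs that fell. The median log2 fold change of all long noncoding RNAs was 0.78 in FFPE 18 h, 1.32 in FFPE 3 weeks and 0.55 between the fixed tissues, which became 0.80, 0.94 and 0.08 with the animal as replicate block.

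**Figure D5:**
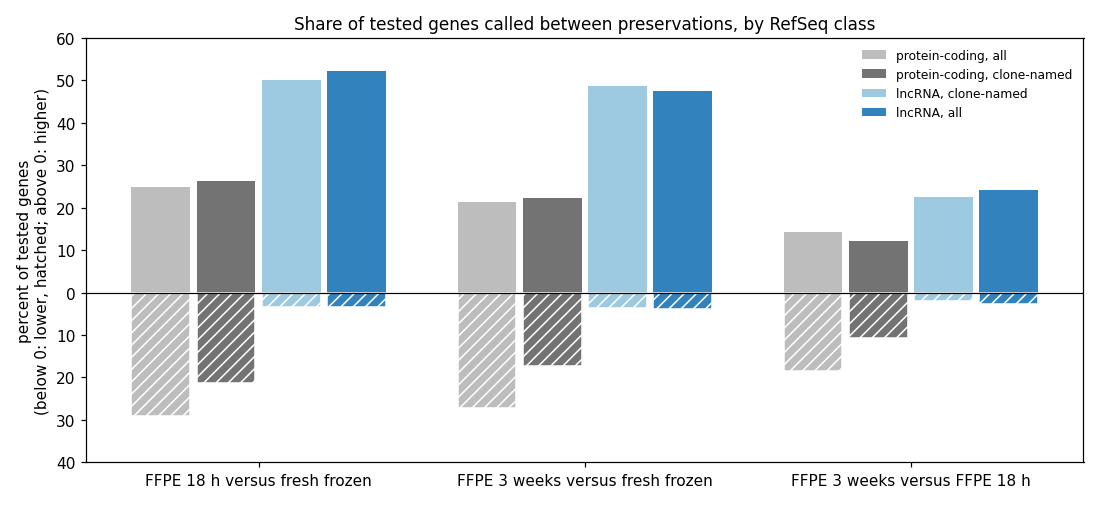
Percent of tested genes that passed the test as higher (above 0) or lower (below 0, hatched) in the 3 comparisons of preservations, for protein-coding genes and long noncoding RNAs of RefSeq, all and clone-named without the 10 members. Long noncoding RNAs passed mostly as higher, 52.2% against 3.43% in FFPE 18 h versus fresh frozen, and protein-coding genes in both directions.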

How the data were processed

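Liver RNA of 8 mice, 3 pieces each, was sequenced after removal of ribosomal RNA. The authors deposited raw counts of 24015 gene symbols in a single table, and 4185 of these symbols are at 0 in all libraries. Per the submitters' processing notes, CASAVA 1.8.2, STAR 2.3.0 and featureCounts 1.4.4 were used with genome build mm9. The release of the gene models, the strand setting and how multi-mapping reads were counted are not given in the sources used here. All 24 columns matched a label. The count totals per library, 5560002 to 49326373, set the precision of low values, and intervals cover counting error only.

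Counts were fitted with edgeR 4.0.16 in R 4.3.3 (TMM, filterByExpr, robust quasi-likelihood test, two-sided, Benjamini-Hochberg adjustment over all genes tested, adjusted p below 0.05). Furan was compared with control in each preservation on its own, 4 against 4 animals, and preservations over 16 libraries, so 6 comparisons in all. Each comparison had its own TMM factors. The SE is the log2 fold change divided by the root of its F statistic. A rise or fall means a gene past that threshold. Log2 CPM used a prior count of 2. The fit was tested on simulated data. The animals are the same in the 3 preservations, so the animal was the replicate block in an alternative fit. Deviations of the same animal correlated with r = 0.33 to 0.46 between frozen and FFPE 18 h tissue, except 0.0439 for animal 03, and with lower values, -0.00974 to 0.183, where FFPE 3 weeks was one of the pair.

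The members and the lists were chosen with earlier results of these data known. Named besides the members are the nearest or overlapping RefSeq genes, the 3 genes most like each member, and from each list up to 3 called genes with the smallest p (for clone-type names the 3 largest changes each way at a mean log2 CPM of at least 1). The text gives a part of those named by this rule. Alternatives were DESeq2 1.42.0 size factors and its test, no low-count filter, a fit over all 24 libraries, thinning to 5560002 counts, leaving out each library or animal, and each treatment alone. Protein paralogs were not analysed here. The annotation used (GRCm38.p6) is not the build of the counts, so it served for names, classes, order of genes and promoter sequences. Exon lengths came from GENCODE vM21, which is not the annotation of the counts either.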

Additional observations from a re-analysis of the deposited data

Results flagged for a closer look

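In groups of 4 animals, a library was marked when its gap to the nearest other value took up most of the range of the group. Of the 60 groups of the 10 members, 3 held such a library, and chance marks about 1 in 20. 2810008D09Rik was at 1.443 CPM in the frozen liver of furan animal 42, below 1.93 to 2.02 CPM in the other 3. In FFPE 3 weeks the same transcript was at 0.09357 CPM, a single read, in furan animal 43 and at 0 in the other 3. 2810007J24Rik was at 1848 CPM in the frozen liver of control animal 02, above 1191 to 1287 CPM in the other 3. Without this animal its log2 fold change with furan in frozen tissue was -0.48 in place of -0.65.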

How the results depend on the processing

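Called genes with furan in frozen tissue numbered 392, and 1004 with the DESeq2 test, 238 after thinning, and 99 to 1148 when each animal was left out (lowest without 44, highest without 03). With furan in FFPE 18 h there were 2208, and 305 in a fit over all 24 libraries. In FFPE 3 weeks there were 335, and 1549 in a fit over all 24 libraries and 218 to 280 when each animal was left out. For FFPE 18 h against frozen tissue 8006 became 5224 in a fit over all 24 libraries and 4136 with control libraries only. For FFPE 3 weeks against frozen tissue 6952 became 4324 with control libraries only. Between the fixed tissues 4664 became 2722 with control and 2873 with furan libraries only, each a fit of fewer libraries. The cause of the other shifts was not tested. With the animal as replicate block (paired fit) the counts were 8522, 6719 and 5162, and no member gained or lost a call. 2810008D09Rik reversed with control libraries only, to 1.04 and 1.19 on the log2 scale. Of 417 alternative values of the members' furan log2 fold changes, 414 moved by less than 1 SD between animals and 0 changed sign. The exceptions were D430041D05Rik (-2.04) and 1700028E10Rik (-1.37) in FFPE 18 h after thinning, and 2810008D09Rik in FFPE 3 weeks without animal 43 (-8.74). All these fits use the libraries on which the members were selected, so nothing is read from the kept sign. Of 480 alternative values between preservations, 467 kept the call, passed or not. Direction was compared only where at least 1 of the 2 fits passed. Values that did not pass could change sign, as for 1700028E10Rik between the fixed tissues (0.24, and -0.51 with furan libraries only). Of 646 alternative values of called list genes, 138 lost the call and 0 changed direction. After thinning, D430041D05Rik and 1700028E10Rik in frozen tissue and 2810008D09Rik in FFPE 3 weeks gave no value. Members under 3 CPM rest on few reads in FFPE 3 weeks.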
